A study of Homo sapiens with 9 samples.

Results

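Mitochondria translate their own small set of messenger RNAs on a ribosome that is distinct from the cytosolic one. Its RNAs are encoded by the mitochondrial genome, whereas its proteins are encoded in the nucleus, made in the cytosol and imported. Every protein it makes is a subunit of the oxidative phosphorylation complexes, and part of its protein complement has a counterpart in the bacterial ribosome while the rest was acquired in the mitochondrial lineage.

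The genes of this ribosome's proteins were taken by name, as protein-coding genes whose symbol is MRPL or MRPS followed by a number and, where present, a letter from A to C. This rule found 78 of the 58929 genes in the table, 49 with MRPL and 29 with MRPS names. By known position, 51 proteins belong to the large subunit (MRPS18A and MRPS30 among them, despite their names), 26 to the small subunit, and MRPS36 to neither, since it is now known as a subunit of the 2-oxoglutarate dehydrogenase complex. Of the 78, 46 have a bacterial counterpart and 31 are specific to mitochondria. The genes lie on 21 chromosomes.

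RNA sequencing was performed on FaDu, an established cell line of head and neck squamous cell carcinoma (HNSCC), treated with YKL-5-124 at 250 nM, samuraciclib at 250 nM or the vehicle DMSO, with 3 libraries of biological replicates in each group. Both compounds inhibit CDK7, YKL-5-124 by forming a covalent bond and samuraciclib by competing with ATP, and CDK7 phosphorylates cell cycle kinases and, within TFIIH, RNA polymerase II. Exposure lasted 48 h by the treatment protocol and by the study's own text, although the design entry of the series gives 72 h. All groups are 1 cell line at 1 dose of each compound, the labels give 1 batch, and both inhibitor comparisons below share the same DMSO libraries.

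Totals were 18264302 to 24613892 read pairs in YKL-5-124 libraries, 19346587 to 22111350 in samuraciclib libraries and 18096180 to 28018126 in DMSO libraries. The squamous and general epithelial markers KRT5 (1855 to 2552 CPM, counts scaled to a common library total), KRT17 (1684 to 2948 CPM), TP63 (133 to 181 CPM), EPCAM and CDH1 were high in every library, while KRT14 (17.8 to 36.1 CPM) and KRT6A (2.68 to 11.6 CPM) were lower. Of the markers of other cell types, the leukocyte genes PTPRC and CD3E, the fibroblast genes COL3A1, DCN and PDGFRB and the endothelial gene PECAM1 stayed at or below 0.207 CPM. The leukocyte gene CD14 stood at 2.22 to 4.23 CPM, the fibroblast gene COL1A1 at 3.53 to 6.00 CPM, and the endothelial genes VWF at 0.569 to 1.14 CPM and CDH5 at 18.8 to 29.4 CPM. RN7SL2, a gene of the 7SL RNA, stood at 56.3 CPM (for this gene with TMM-adjusted library sizes) in YKL-5-124 replicate 2, 24.9 in samuraciclib replicate 2 and 59.3 in DMSO replicate 3, against 696 to 981 in the other libraries, and counts were therefore also made over the 6 libraries without these 3. All 78 genes passed the filter on low counts, and 75 had at least 100 counts in every library. The exceptions were MRPL38 (75 to 126 counts per library), MRPL53 (59 to 136) and MRPS24 (8 to 28), of which MRPS24 lies wholly inside the readthrough gene URGCP-MRPS24 on its strand. Such overlaps, which can divide or remove reads, affect 13 members where the other gene is protein-coding and on the same strand, and 49 members overlap some gene model. Because the strand setting of the counting is not given in the sources used here, reads of opposite-strand neighbours cannot be told apart either. In bulk RNA, fewer cells and less RNA per cell likewise cannot be told apart.

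The regulatory sequences of 6 members around which the results turn are shown first, namely the members with the 3 largest falls with YKL-5-124 (MRPL1, MRPL48 and MRPL42), the only member called between the inhibitors (MRPL57), and the head-to-head pair MRPS11 and MRPL46. Each is the 300-base window from 250 bases before to 50 bases from the RefSeq start in GRCh38.p14, given 5′ to 3′ in the direction of the gene. Capitals mark matches, on either strand, to CGCANGCG (core of the NRF1 motif), CCGGAAG (ETS family, to which GABPA belongs) or AAGATGGC (YY1), proteins known to regulate nuclear genes of mitochondrial function. The windows are MRPL1 at chr4:77862580-77862879 (plus strand), MRPL48 at chr11:73787624-73787923 (plus), MRPL42 at chr12:93467264-93467563 (plus), MRPL57 at chr13:21176408-21176707 (plus), MRPS11 at chr15:88467458-88467757 (plus) and MRPL46 at chr15:88467339-88467638 (minus).
MRPL1: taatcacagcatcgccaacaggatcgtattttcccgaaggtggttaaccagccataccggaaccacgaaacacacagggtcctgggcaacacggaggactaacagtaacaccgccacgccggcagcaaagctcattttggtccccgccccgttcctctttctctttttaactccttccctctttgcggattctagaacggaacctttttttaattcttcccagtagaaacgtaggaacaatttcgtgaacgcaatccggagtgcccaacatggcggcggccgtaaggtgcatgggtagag
MRPL48: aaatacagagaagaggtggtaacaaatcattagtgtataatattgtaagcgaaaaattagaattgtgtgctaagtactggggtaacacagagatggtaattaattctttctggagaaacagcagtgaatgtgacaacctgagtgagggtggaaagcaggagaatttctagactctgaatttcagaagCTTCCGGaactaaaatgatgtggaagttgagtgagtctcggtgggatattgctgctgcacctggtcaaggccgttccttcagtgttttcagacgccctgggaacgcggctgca
MRPL42: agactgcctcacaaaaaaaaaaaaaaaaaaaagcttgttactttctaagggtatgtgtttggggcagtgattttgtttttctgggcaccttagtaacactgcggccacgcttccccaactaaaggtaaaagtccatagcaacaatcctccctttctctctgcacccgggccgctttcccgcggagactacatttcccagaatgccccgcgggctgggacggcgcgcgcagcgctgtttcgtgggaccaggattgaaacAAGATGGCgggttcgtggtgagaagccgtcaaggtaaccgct
MRPL57: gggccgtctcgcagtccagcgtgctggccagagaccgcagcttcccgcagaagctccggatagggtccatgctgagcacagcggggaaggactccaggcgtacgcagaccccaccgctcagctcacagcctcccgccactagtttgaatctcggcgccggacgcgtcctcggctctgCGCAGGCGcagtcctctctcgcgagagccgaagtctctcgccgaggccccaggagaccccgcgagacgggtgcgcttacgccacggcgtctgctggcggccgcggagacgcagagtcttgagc
MRPS11: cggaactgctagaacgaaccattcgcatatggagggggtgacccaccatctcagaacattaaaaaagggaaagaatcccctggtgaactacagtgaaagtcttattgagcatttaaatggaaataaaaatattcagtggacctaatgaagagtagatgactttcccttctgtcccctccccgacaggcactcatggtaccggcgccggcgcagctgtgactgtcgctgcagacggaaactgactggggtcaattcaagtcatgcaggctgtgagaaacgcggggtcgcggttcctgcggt
MRPL46: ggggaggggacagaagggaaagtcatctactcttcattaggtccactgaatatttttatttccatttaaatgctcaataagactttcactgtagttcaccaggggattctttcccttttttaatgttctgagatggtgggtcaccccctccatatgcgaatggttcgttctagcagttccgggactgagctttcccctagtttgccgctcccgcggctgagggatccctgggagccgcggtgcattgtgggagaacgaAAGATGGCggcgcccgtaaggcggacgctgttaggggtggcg

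The MRPL1 window held none of the 3 motifs, MRPL48 held 1 ETS match, MRPL42 1 YY1 match and MRPL57 1 NRF1-core match. The MRPL46 window held a YY1 match 8 bases from its start, and the MRPS11 window, which shares 181 bases with it on the other strand, held none. A window was found for 69 of the 78 members (MRPL2, MRPL10, MRPL13, MRPL15, MRPL21, MRPL23, MRPL35, MRPS28 and MRPS36 had none), and 40 of these 69 starts lay within 100 bases of the start in the count table. Of the windows shown, those of MRPL42, MRPL57 and MRPL46 do so, whereas the RefSeq starts of MRPL1, MRPL48 and MRPS11 lie 310, 558 and 255 bases downstream of the table's, which their windows do not reach. Among the 69, 28 windows (40.6%) held the ETS letters, against 10.7% of 27305 promoters of the same length, 20 (29.0%) the YY1 letters, against 3.03%, and 11 (15.9%) the NRF1 core, against 10.6%. Any of the 3 was found in 45 members (65.2%), against 21.2% of all promoters, and no matches to different motifs overlapped among the 72 matches in members. Of the 21 matches to AAGATGGC, 17 ran in the direction of the gene and 15 of those began at or after the start. Among members called lower with at least 1 inhibitor, 10 of 15 windows (66.7%) held any of the motifs, against 35 of 54 (64.8%) of the others, with 4 (26.7%) against 24 (44.4%) for the ETS letters, 5 (33.3%) against 15 (27.8%) for YY1 and 2 (13.3%) against 9 (16.7%) for the NRF1 core. These shares were not tested. The 27305 promoters, 1 for each symbol, were not selected as protein-coding or as passing the filter on low counts, whereas all members were. These matches describe letters in a window and not bound sites.

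Levels of the members covered a wide range in each group. Per kilobase of the gene model, the median of the 78 was 19.2 CPM (from here on with TMM-adjusted library sizes) with YKL-5-124, 18.3 with samuraciclib and 22.6 with DMSO, and that of the cytosolic ribosomal protein genes was 99.9 with YKL-5-124, 139 with samuraciclib and 208 with DMSO. The highest member was MRPS34, a mitochondria-specific protein of the small subunit, at 145 ± 9.1 CPM per kilobase with YKL-5-124, 144 ± 11.3 with samuraciclib and 185 ± 11.4 with DMSO (SD, n = 3 each). MRPL51, a large subunit protein, followed at 109 ± 2.38 with YKL-5-124, 107 ± 4.14 with samuraciclib and 105 ± 5.98 CPM per kilobase with DMSO. MRPL37 came next in DMSO at 97.3 ± 3.58 CPM per kilobase, with an SD that overlapped that of MRPL51, and stood at 64.9 ± 1.99 with YKL-5-124 and 77.3 ± 4.07 with samuraciclib. At the low end per kilobase in DMSO were MRPS24, MRPL38 and MRPL46, each covered almost entirely by another gene model on its own strand. MRPL12, at 75.1 ± 6.9 CPM per kilobase with DMSO, is covered likewise, as are MRPL30, MRPS17, MRPS28 and MRPL53. Per kilobase in DMSO, MRPL12 ranked 9, MRPL30 53, MRPS28 59, MRPS17 73 and MRPL53 74 of the 78. Whether such cover lowers the counted level was not tested. MRPL46 had 2.2 ± 0.212 CPM per kilobase with YKL-5-124, 1.91 ± 0.0932 with samuraciclib and 2.14 ± 0.213 with DMSO. MRPL38 had 1.43 ± 0.16 with YKL-5-124, 1.59 ± 0.0973 with samuraciclib and 1.15 ± 0.257 CPM per kilobase with DMSO.

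Both inhibitors were compared with DMSO to ask which genes change when CDK7 is inhibited. A gene was called where edgeR's quasi-likelihood test gave a Benjamini-Hochberg adjusted p below 0.05 over 16065 genes (written below as edgeR adjusted p) and the log2 fold change exceeded 0.5 in size. With YKL-5-124, 12 of the 78 members (15.4%) were called lower, where 9.93% of all genes were, and 0 were called higher, where 11.9% of all genes were. With samuraciclib, 14 members (17.9%) were called lower, against 9.55% of all genes, and 0 higher, against 8.17%. By adjusted p alone, whatever the fold, 34 members were lower and 5 higher with YKL-5-124 (background 25.2% lower and 24.1% higher), and 45 were lower and 4 higher with samuraciclib (background 23.1% lower and 21.0% higher). At an unadjusted p below 0.05 in edgeR, 36 members were lower and 8 higher with YKL-5-124, and 48 lower and 5 higher with samuraciclib. No share of all genes is given at this p, so these counts cannot be set against the background. DESeq2, like edgeR, called 0 higher with either, where 10.6% of all genes were with YKL-5-124 and 7.31% with samuraciclib. Most members that passed the adjusted p thus did not reach the fold threshold. The median log2 fold change of the members was −0.13 with YKL-5-124, against 0.01 for all genes tested, and −0.27 with samuraciclib, against 0.00. It was below 0 for 55 members with YKL-5-124 and for 64 with samuraciclib.

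**Figure D1:**
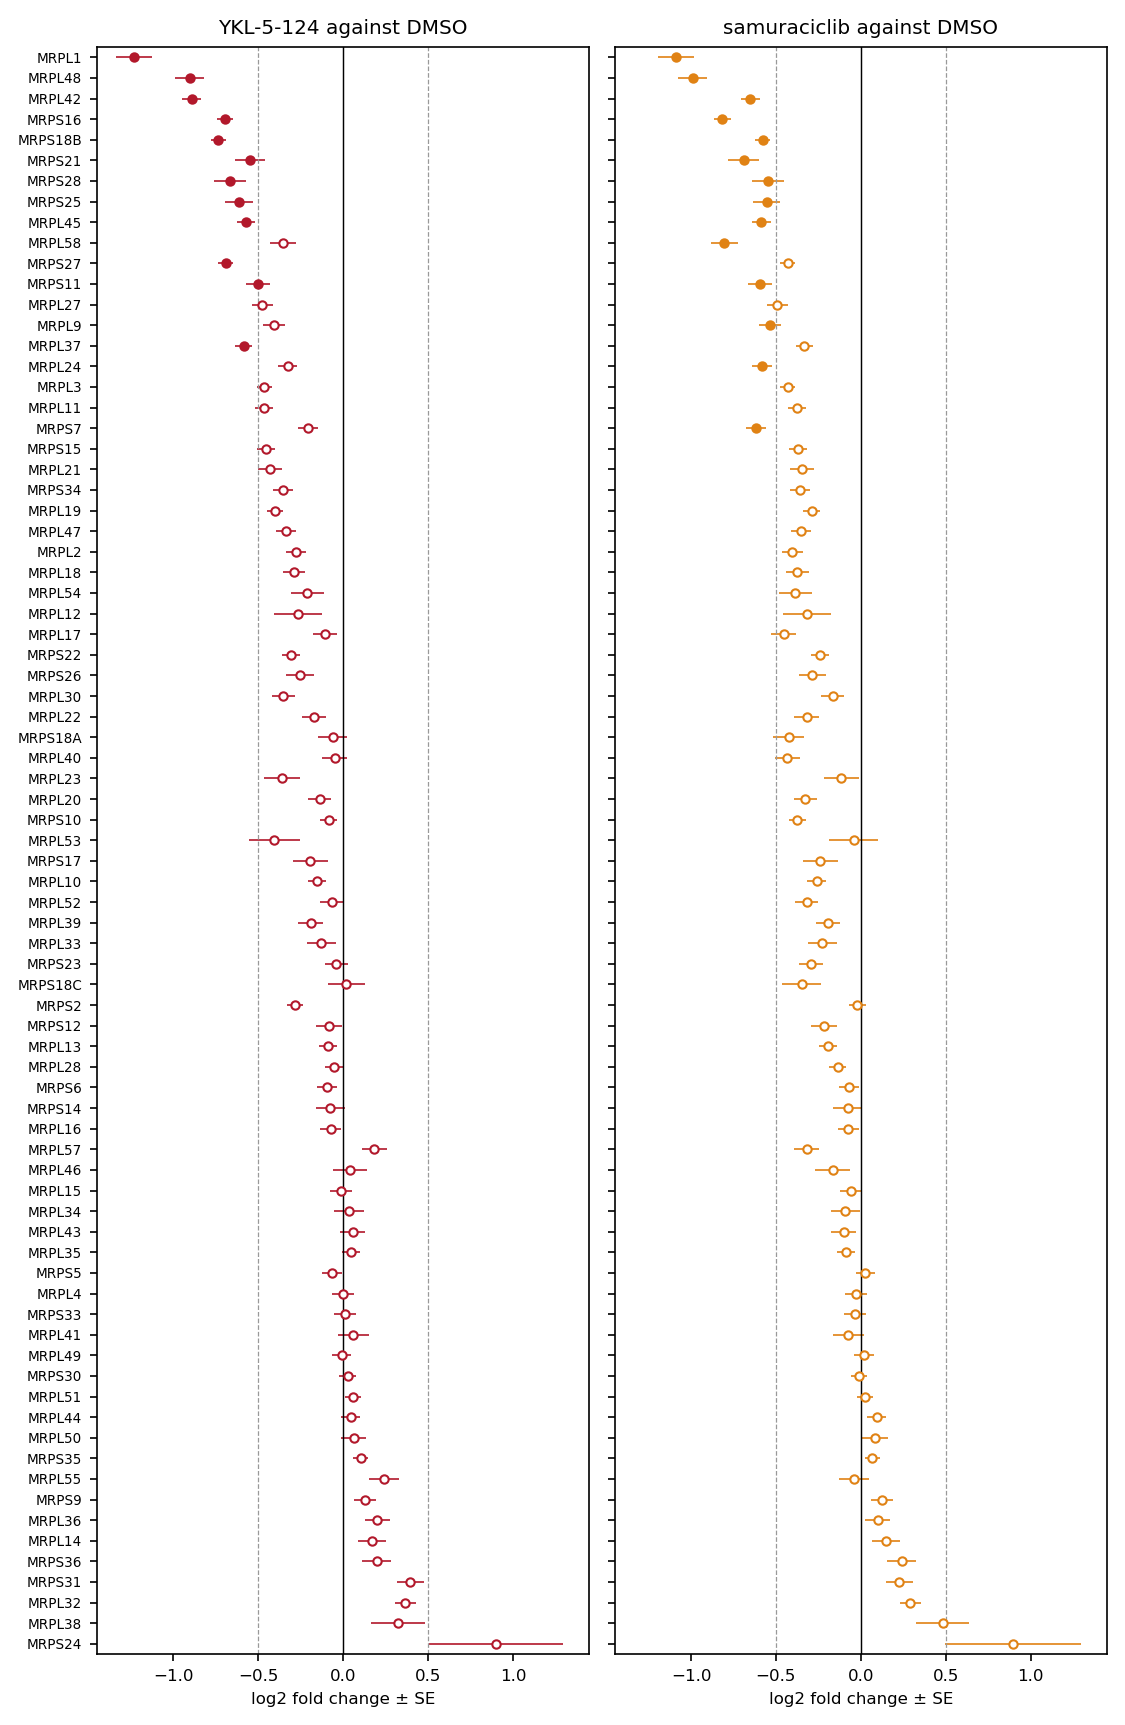
The log2 fold change of each of the 78 members (rows) against DMSO, with YKL-5-124 on the left and samuraciclib on the right. Bars are SE from the edgeR fit on 3 libraries a group, filled points are called, dashed lines mark 0.5 in either direction, and rows are ordered by the mean of both values. MRPL1 has the lowest values, −1.23 with YKL-5-124 and −1.09 with samuraciclib, and no filled point lies above 0.

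Over the 6 libraries that were not low in 7SL RNA, 16 members were called lower with YKL-5-124, where 9.72% of all genes were. With samuraciclib 15 were, where 9.17% of all genes were. In the scaling by library size alone, the median of all genes shifted to 0.14 with YKL-5-124 and 0.06 with samuraciclib. The member median then stood at −0.0045 with YKL-5-124 and −0.21 with samuraciclib. The member median minus that of all genes was −0.15 with YKL-5-124 and −0.27 with samuraciclib under either scaling. Scaling shifts all log2 fold changes of a comparison by nearly the same amount, so this difference could hardly move. With library size alone, 7 members were called lower with YKL-5-124, against 6.55% of all genes, and 11 with samuraciclib, against 7.59%. The share of all counts that fell on the members was 0.498% to 0.528% in YKL-5-124 libraries, 0.455% to 0.501% in samuraciclib libraries and 0.518% to 0.560% in DMSO libraries. The YKL-5-124 range overlapped that of DMSO, and the samuraciclib range lay below it.

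The cytosolic ribosome, for which 79 protein genes were tested, differed more. With YKL-5-124, 75 of these (94.9%) were called lower at a median log2 fold change of −0.97, where 9.93% of all genes were. With samuraciclib 42 (53.2%) were, at a median of −0.51, where 9.55% of all genes were. In the cytosolic genes YKL-5-124 had the lower median, and in the mitochondrial genes samuraciclib had. Between the inhibitors, 0 mitochondrial genes were called lower with YKL-5-124 than with samuraciclib (median 0.04), against 39 cytosolic ones (49.4%, median −0.50). Of all genes, 2.46% were.

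**Figure D2:**
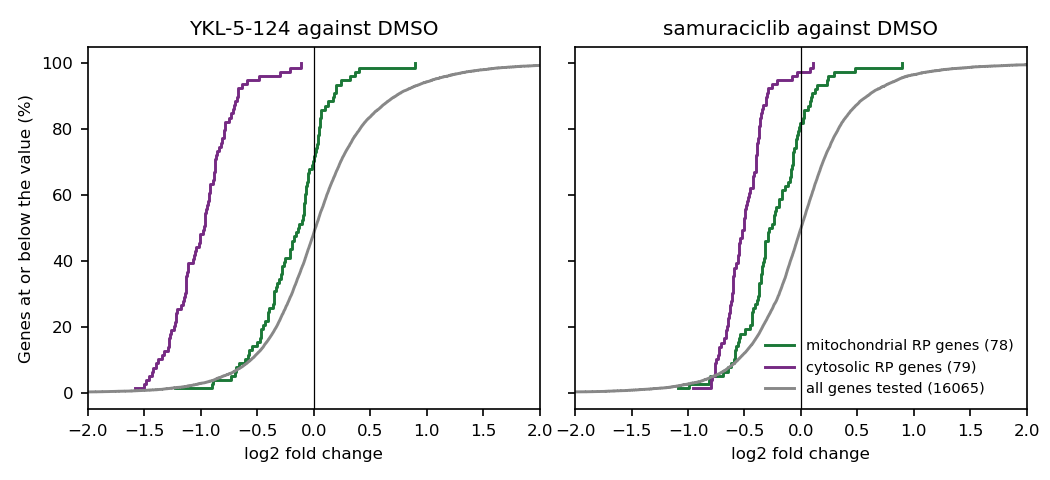
Cumulative share of genes (vertical axis, percent) at or below each log2 fold change (horizontal axis) with YKL-5-124 (left) and samuraciclib (right) against DMSO, for 78 mitochondrial ribosomal protein genes, 79 cytosolic ones and all 16065 genes tested; values beyond 2 in size are not drawn. The mitochondrial curve lies between the cytosolic one and that of all genes at the median.

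By subunit, 5 of 51 large subunit genes (9.80%, median log2 fold change −0.13) and 7 of 26 small subunit genes (26.9%, median −0.20) were called lower with YKL-5-124, where 9.93% of all genes were, so the large subunit's share was close to that of all genes. With samuraciclib, 7 of 51 large (13.7%, median −0.26) and 7 of 26 small subunit genes (26.9%, median −0.29) were, against 9.55% of all genes. Genes with a bacterial counterpart gave 5 of 46 called lower with YKL-5-124 (10.9%) and 8 of 46 with samuraciclib (17.4%), and mitochondria-specific genes 7 of 31 with YKL-5-124 (22.6%) and 6 of 31 with samuraciclib (19.4%). These splits were not tested and are given as counts. Among the 65 members without a protein-coding overlap on their strand, 10 were called lower with YKL-5-124 and 12 with samuraciclib.

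In the large subunit, the lowest value with either inhibitor was that of MRPL1, the counterpart of the bacterial L1 protein in the mobile stalk by which spent tRNA leaves (chr4:77862520-77952790, GRCh38). MRPL1 measured 10.6, 10.4 and 8.85 CPM with YKL-5-124, 10.7, 9.98 and 12.4 CPM with samuraciclib, and 22.1, 25.7 and 22.6 CPM with DMSO. Every inhibitor library was below every DMSO library. Its log2 fold change was −1.23 ± 0.105 (SE, as for all log2 fold changes) with YKL-5-124 (edgeR adjusted p = 2.33e-08) and −1.09 ± 0.104 with samuraciclib (edgeR adjusted p = 1.51e-07). MRPL48, a mitochondria-specific protein of the central protuberance (chr11:73787316-73865133), measured 14.5, 14.7 and 15.3 CPM with YKL-5-124, 13.3, 13.7 and 14.9 CPM with samuraciclib, and 30.2, 27.1 and 26.1 CPM with DMSO. The inhibitor libraries reached at most 15.3 CPM and the DMSO libraries at least 26.1. The log2 fold change was −0.90 ± 0.0831 with YKL-5-124 (edgeR adjusted p = 6.34e-08) and −0.99 ± 0.0839 with samuraciclib (edgeR adjusted p = 3.27e-08).

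MRPL42, also mitochondria-specific (chr12:93467488-93516213), measured 61.4, 64.8 and 56.7 CPM with YKL-5-124, 75.7, 71 and 69.6 CPM with samuraciclib, and 110.4, 118 and 111 CPM with DMSO. All 3 groups were apart, with the lowest values under YKL-5-124. Its log2 fold change was −0.89 ± 0.0566 with YKL-5-124 (edgeR adjusted p = 4.73e-10) and −0.65 ± 0.0561 with samuraciclib (edgeR adjusted p = 4.18e-08). MRPL45, which lies at the polypeptide exit and holds the ribosome to the inner membrane, measured 61.7, 62.2 and 62.1 CPM with YKL-5-124, 59.5, 61.4 and 63.5 CPM with samuraciclib, and 89, 99.5 and 88.1 CPM with DMSO. Both inhibitor groups lay together below DMSO, at −0.57 ± 0.055 with YKL-5-124 and −0.58 ± 0.0552 with samuraciclib. Its named pseudogenes carried 1425 counts against 13670 of its own, so part of its reads may have been divided among copies.

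In the small subunit, MRPS16, the counterpart of bacterial S16, measured 72.1, 72.5 and 73.7 CPM with YKL-5-124, 67.1, 64.3 and 69.3 CPM with samuraciclib, and 115, 118 and 120.1 CPM with DMSO. The groups did not overlap, and the log2 fold change was −0.69 ± 0.0476 with YKL-5-124 (edgeR adjusted p = 1.35e-09) and −0.82 ± 0.048 with samuraciclib (edgeR adjusted p = 4.38e-10). MRPS25, mitochondria-specific, measured 21.5, 23.7 and 26.3 CPM with YKL-5-124, 23.3, 24 and 27.3 CPM with samuraciclib, and 37.5, 36.3 and 35.7 CPM with DMSO. MRPS25 fell to below every DMSO library with both compounds, by a log2 fold change of −0.61 ± 0.0804 with YKL-5-124 and −0.55 ± 0.0804 with samuraciclib, and NR2C2 on the opposite strand covers 48.7% of its span. MRPS28 measured 13, 13.2 and 13.4 CPM with YKL-5-124, 15.7, 13.3 and 14.1 CPM with samuraciclib, and 22, 22.5 and 18.6 CPM with DMSO. Its inhibitor libraries were again all lower than those of DMSO, at −0.67 ± 0.0956 with YKL-5-124 and −0.55 ± 0.0951 with samuraciclib. A protein-coding gene model on its strand, AC036214.3, covers 99.9% of its span and had 2 counts over all libraries.

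MRPS21, the counterpart of bacterial S21, measured 11.9, 11.8 and 11.9 CPM with YKL-5-124, 11.1, 10.4 and 10.6 CPM with samuraciclib, and 18.5, 17.1 and 16.3 CPM with DMSO. Neither inhibitor group overlapped DMSO, and the log2 fold change was −0.55 ± 0.0882 with YKL-5-124 and −0.69 ± 0.0893 with samuraciclib. MRPS11, the counterpart of S11 in the platform of the subunit, measured 28.5, 34.2 and 32.6 CPM with YKL-5-124, 30.3, 30.2 and 29.1 CPM with samuraciclib, and 45.1, 47.3 and 42.9 CPM with DMSO. Its value with YKL-5-124, −0.50 ± 0.0702, was the call nearest to the fold threshold and was lost under 6 of 20 alternatives, among them leaving out DMSO replicate 2 or YKL-5-124 replicate 1, whereas that with samuraciclib was −0.59 ± 0.0708. Across the calls against DMSO, the largest edgeR adjusted p was 5.07e-05 with YKL-5-124 (MRPS21) and 1.35e-04 with samuraciclib (MRPS28).

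**Figure D3:**
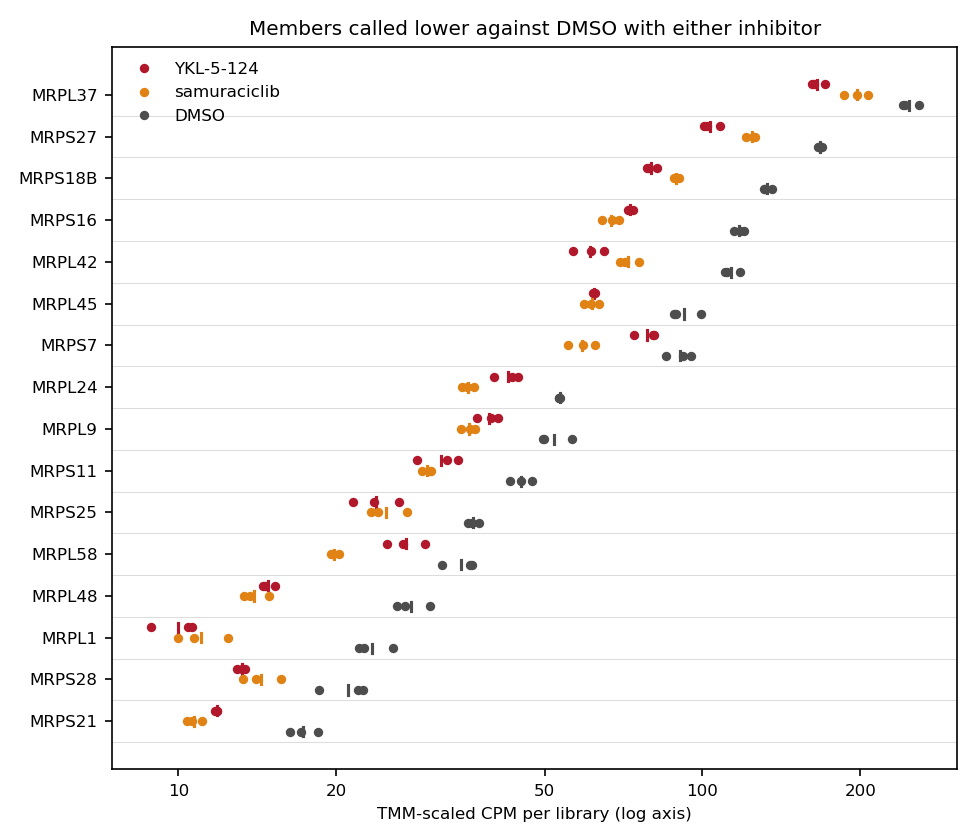
TMM-scaled CPM of the 16 members called lower against DMSO with at least 1 inhibitor (rows, by DMSO level; log axis), with YKL-5-124 above samuraciclib above DMSO in each row. Points are libraries and short lines group means; all inhibitor points of MRPL1, MRPL48, MRPL42 and MRPS16 lie left of the DMSO points of the same row.

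Several members passed the fold threshold with 1 inhibitor only. MRPS27, a pentatricopeptide repeat protein of the small subunit, measured 101, 108 and 102 CPM with YKL-5-124, 121, 126 and 125 CPM with samuraciclib, and 167, 166 and 169 CPM with DMSO. MRPS27 was called lower with YKL-5-124 (−0.69 ± 0.0449), stood at −0.43 ± 0.0445 with samuraciclib, and differed between the compounds by −0.26 ± 0.0451 (edgeR adjusted p = 4.48e-04). MRPL37, mitochondria-specific and next after MRPL51 in level per kilobase in DMSO, measured 162, 163 and 171 CPM with YKL-5-124, 197, 187 and 207 CPM with samuraciclib, and 242, 258 and 244 CPM with DMSO. The groups formed 3 separate levels, with a call for YKL-5-124 (−0.58 ± 0.0489), a value of −0.33 ± 0.0487 for samuraciclib and a difference of −0.25 ± 0.049 between them (edgeR adjusted p = 0.00113).

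Other members were lowest with samuraciclib. MRPL58, a peptidyl-tRNA hydrolase built into the large subunit, measured 26.9, 25 and 29.6 CPM with YKL-5-124, 19.5, 20.3 and 19.7 CPM with samuraciclib, and 36.3, 36 and 31.8 CPM with DMSO. It was called lower with samuraciclib (−0.80 ± 0.0794, edgeR adjusted p = 2.27e-07), stood at −0.35 ± 0.077 with YKL-5-124, and was higher with YKL-5-124 than with samuraciclib by 0.45 ± 0.0803 (edgeR adjusted p = 5.80e-04). MRPS7, the counterpart of bacterial S7 in the head of the small subunit, measured 73.9, 80.7 and 80.4 CPM with YKL-5-124, 59.3, 55.4 and 62.4 CPM with samuraciclib, and 91.9, 95.1 and 85.2 CPM with DMSO. Its 3 groups did not overlap, at −0.62 ± 0.0596 for samuraciclib and −0.21 ± 0.0585 for YKL-5-124 against DMSO. MRPL24, the counterpart of L24 near the tunnel exit, measured 43.3, 39.95 and 44.5 CPM with YKL-5-124, 34.7, 35.5 and 36.6 CPM with samuraciclib, and 53.3, 53.5 and 53.2 CPM with DMSO. MRPL24 was likewise called with samuraciclib (−0.58 ± 0.0586), stood at −0.33 ± 0.0577 with YKL-5-124, and differed between the compounds by 0.26 ± 0.0592 (edgeR adjusted p = 0.00408). MRPL9, the counterpart of bacterial L9, measured 39.5, 40.7 and 37.1 CPM with YKL-5-124, 36.1, 36.8 and 34.6 CPM with samuraciclib, and 49.9, 56.5 and 49.6 CPM with DMSO. Here the values were −0.54 ± 0.0649 for samuraciclib, which was called, and −0.41 ± 0.0643 for YKL-5-124, and the compounds differed by 0.13 ± 0.0658 (95% interval −0.01 to 0.27, edgeR adjusted p = 0.173), so a difference between them was not detectable. The samuraciclib call of MRPL9 was lost without DMSO replicate 2, and that of MRPS28 without DMSO replicate 2 or samuraciclib replicate 2. Just short of the fold threshold, and so not called, lay MRPL27, at −0.47 ± 0.0601 with YKL-5-124 and −0.49 ± 0.0603 with samuraciclib.

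The direct comparison of the compounds asked where a covalent and an ATP-competitive CDK7 inhibitor differ at the same dose. Of the 78 members, 1 was called higher with YKL-5-124 than with samuraciclib (background 4.46%) and 0 lower (background 2.46%). By adjusted p alone 13 were higher (background 11.8%) and 5 lower (background 13.2%), and the median difference was 0.04, against 0.01 for all genes. At an unadjusted p below 0.05 in edgeR, 17 were higher and 9 lower, with no share of all genes given at this p. DESeq2 called 0 lower (2.19% of all genes) and 0 higher (3.54% of all genes). The called member was MRPL57, a mitochondria-specific protein of the large subunit (chr13:21176645-21179084), which measured 72, 66.9 and 78.3 CPM with YKL-5-124, 55, 46.4 and 51.8 CPM with samuraciclib, and 62.8, 69.4 and 59.3 CPM with DMSO. It was higher with YKL-5-124 than with samuraciclib by 0.50 ± 0.0737 (95% interval 0.35 to 0.66, edgeR adjusted p = 9.69e-05), at the fold threshold, and the call was lost under 9 of 20 alternatives. These include DESeq2, the 6 libraries not low in 7SL RNA, and leaving out DMSO replicate 1, DMSO replicate 2, YKL-5-124 replicate 3 or samuraciclib replicate 2. Against DMSO, MRPL57 stood at 0.18 ± 0.0728 with YKL-5-124 (edgeR adjusted p = 0.0449) and −0.32 ± 0.0744 with samuraciclib (edgeR adjusted p = 0.00185).

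After MRPL57 and MRPL58, the members higher with YKL-5-124 by adjusted p alone were MRPS7 (0.41 ± 0.0597), MRPL40 (0.38 ± 0.0737), MRPS18C, MRPS18A, MRPL17, MRPS10, MRPL55, MRPL24, MRPS23, MRPL52 and MRPL20, in falling order. Those lower were MRPS2 (−0.26 ± 0.048), MRPS27, MRPL37, MRPL42 (−0.24 ± 0.0575) and MRPS18B. For MRPL1 the compounds differed by −0.14 ± 0.111 with a 95% interval of −0.38 to 0.09, for MRPL48 by 0.09 ± 0.0876 (−0.10 to 0.27) and for MRPL45 by 0.01 ± 0.056 (−0.10 to 0.13), none past the threshold. The intervals limit a difference to at most 0.38 in size for MRPL1 and to 0.13 or less for MRPL45.

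**Figure D4:**
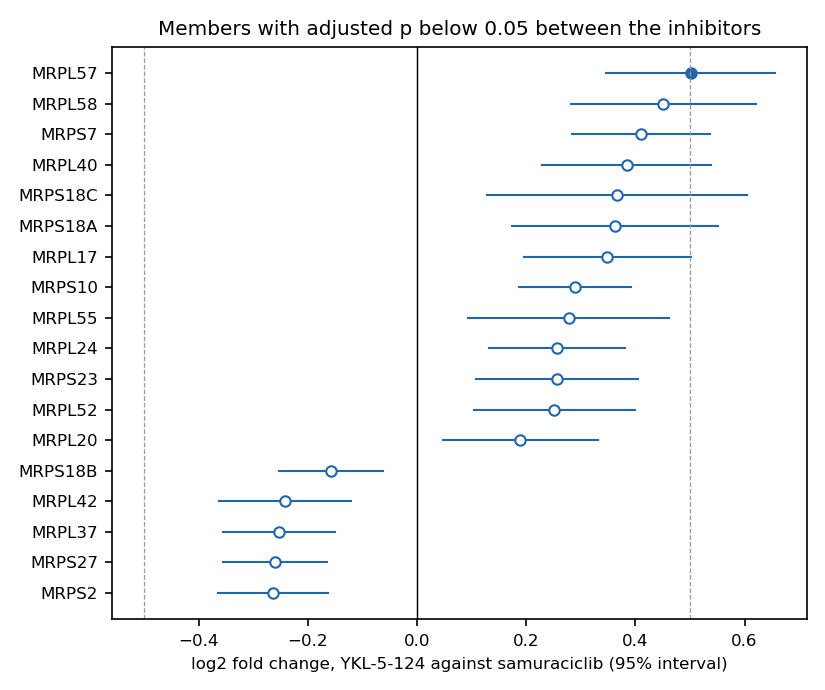
Log2 fold change of YKL-5-124 against samuraciclib for the 18 members with an edgeR adjusted p below 0.05, with 95% intervals from 3 libraries a group; the filled point is called and dashed lines mark 0.5 in either direction. MRPL57 is highest at 0.50 and MRPS2 lowest at −0.26.

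The paralogs of 1 family differed in their values. Of the 3 paralogs of bacterial S18, MRPS18B and MRPS18C sit in the small subunit and MRPS18A in the large one. In the split by origin above, only MRPS18C was counted as having a bacterial counterpart, and MRPS18A and MRPS18B as mitochondria-specific. MRPS18B measured 78.4, 81.9 and 79.1 CPM with YKL-5-124, 88.2, 88.8 and 90.1 CPM with samuraciclib, and 136, 132 and 131 CPM with DMSO. It was lower than DMSO in every inhibitor library, at −0.73 ± 0.0451 with YKL-5-124 (edgeR adjusted p = 3.12e-10) and −0.58 ± 0.0448 with samuraciclib (edgeR adjusted p = 1.15e-08), and PPP1R10 on the opposite strand overlaps 10.4% of its span. MRPS18A measured 20.9, 21.6 and 24.8 CPM with YKL-5-124, 16.2, 17.5 and 18.7 CPM with samuraciclib, and 21.6, 23.3 and 25.2 CPM with DMSO. Its YKL-5-124 libraries overlapped those of DMSO (−0.06 ± 0.0877), while the samuraciclib libraries lay below them (−0.43 ± 0.0899, edgeR adjusted p = 8.09e-04). MRPS18C measured 11.4, 14.6 and 12.8 CPM with YKL-5-124, 10.8, 10.7 and 8.69 CPM with samuraciclib, and 13.3, 11.9 and 13.3 CPM with DMSO. It showed the same arrangement, with 0.02 ± 0.111 for YKL-5-124 and −0.35 ± 0.114 for samuraciclib (edgeR adjusted p = 0.0189). Between the compounds, MRPS18A differed by 0.36 ± 0.0899 and MRPS18C by 0.37 ± 0.113, both higher with YKL-5-124, and MRPS18B by −0.16 ± 0.0456, lower with it.

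MRPS11 and MRPL46 start head to head on chromosome 15, with their starts 34 bases apart in the count table and 320 in RefSeq. MRPS11 fell with both inhibitors as given above, and MRPL46 measured 13.7, 13.1 and 15.7 CPM with YKL-5-124, 11.7, 12.3 and 12.8 CPM with samuraciclib, and 15.3, 12.7 and 13.3 CPM with DMSO. Its groups overlapped between either inhibitor and DMSO, with log2 fold changes of 0.04 ± 0.101 for YKL-5-124 and −0.17 ± 0.103 for samuraciclib. The log2 ratio of MRPS11 to MRPL46 averaged 1.16 ± 0.187 with YKL-5-124 and 1.29 ± 0.0995 with samuraciclib, against 1.71 ± 0.171 with DMSO (SD, n = 3 each). Each inhibitor was apart from DMSO in every library, and the two-sided exact permutation test gave p = 0.1 for both, the smallest value that 3 against 3 libraries allow. Of the head-to-head neighbours of members, only this pair was tested, and its ratio restates the library values of both genes. A predicted protein-coding gene, AC013489.1, covers 99.7% of MRPL46 on its strand and lies opposite MRPS11, with 4 counts in all libraries.

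**Figure D5:**
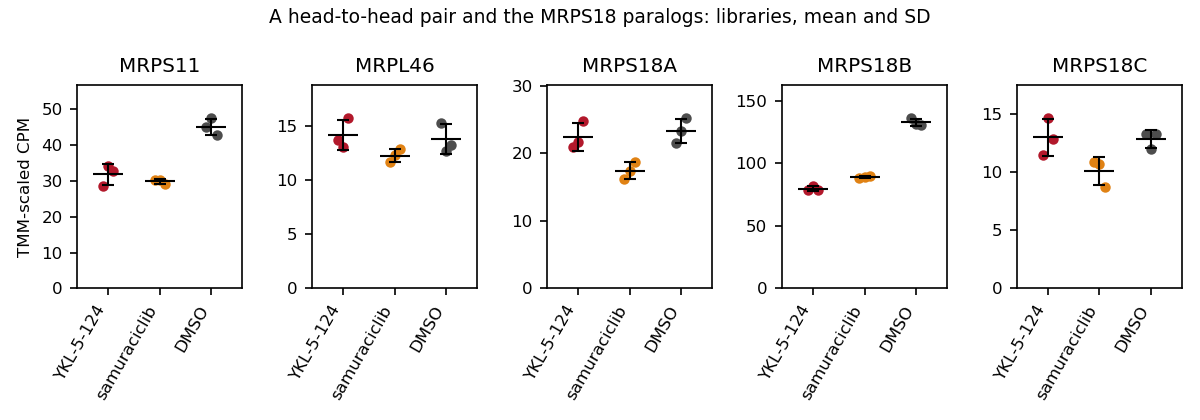
TMM-scaled CPM of MRPS11, MRPL46 and the MRPS18 paralogs in YKL-5-124 (left), samuraciclib (middle) and DMSO (right) libraries; points are libraries, and black bars are the mean and SD of 3. MRPS11 and MRPS18B are lower with both inhibitors, whereas the MRPL46 points of either inhibitor overlap those of DMSO.

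The stalk to which translation factors bind holds MRPL10, MRPL12 and MRPL53, and none of them was called. MRPL12, the counterpart of L7/L12, measured 62.2, 53.3 and 77.4 CPM with YKL-5-124, 69.8, 44.2 and 72.3 CPM with samuraciclib, and 84.9, 76 and 70.9 CPM with DMSO. Its libraries overlapped in all comparisons, and no difference passed the test (−0.27 ± 0.14 with YKL-5-124 and −0.31 ± 0.14 with samuraciclib). A protein-coding gene model on its strand, AC139530.2, covers 99.7% of its span and had 0 counts over all libraries. MRPL10, which anchors MRPL12, measured 61.2, 62.2 and 56.2 CPM with YKL-5-124, 56.1, 54.6 and 56.2 CPM with samuraciclib, and 64.4, 69.1 and 66.3 CPM with DMSO. It was lower than DMSO by a small margin, −0.15 ± 0.0545 with YKL-5-124 (edgeR adjusted p = 0.0266) and −0.26 ± 0.0549 with samuraciclib (edgeR adjusted p = 7.98e-04). MRPL53 measured 3.07, 3.49 and 3.94 CPM with YKL-5-124, 4.82, 4.15 and 4.57 CPM with samuraciclib, and 4.52, 4.21 and 5.12 CPM with DMSO. The YKL-5-124 libraries were the lowest (−0.41 ± 0.15, edgeR adjusted p = 0.0317) and the samuraciclib libraries overlapped those of DMSO (−0.04 ± 0.146), but CCDC142 covers 97.9% of this gene on the same strand.

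MRPL11 and MRPL21 lie in 11q13, a band often amplified in HNSCC, as do MRPL48 and MRPL49. MRPL48 was called lower with both inhibitors, as given above. MRPL49 was not called, at −0.01 ± 0.0566 with YKL-5-124 and 0.02 ± 0.0567 with samuraciclib. MRPL11, the counterpart of L11 at the stalk base, measured 144, 148 and 156 CPM with YKL-5-124, 156, 154 and 168 CPM with samuraciclib, and 214, 214 and 193 CPM with DMSO. The inhibitor groups lay below DMSO at −0.47 ± 0.0522 with YKL-5-124 (edgeR adjusted p = 7.53e-07) and −0.38 ± 0.0521 with samuraciclib (edgeR adjusted p = 1.13e-05), short of the fold threshold. MRPL21 measured 45.6, 55 and 51.8 CPM with YKL-5-124, 54.8, 51.5 and 55.6 CPM with samuraciclib, and 65.6, 74.4 and 65.7 CPM with DMSO. Its inhibitor libraries were also below those of DMSO, at −0.43 ± 0.0692 with YKL-5-124 and −0.35 ± 0.0691 with samuraciclib. Over the 6 libraries not low in 7SL RNA, MRPL11 and MRPL21 were called lower with YKL-5-124.

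At the top of the range of levels per kilobase, MRPS34 measured 153, 152 and 170.1 CPM with YKL-5-124, 157, 146 and 171 CPM with samuraciclib, and 207, 212 and 189 CPM with DMSO. It was lower with both compounds by adjusted p alone (−0.35 ± 0.0607 with YKL-5-124 and −0.36 ± 0.0607 with samuraciclib), while the compounds differed by 0.00 ± 0.0609 (95% interval −0.12 to 0.13). MRPL51 measured 167, 168 and 174 CPM with YKL-5-124, 162, 162 and 173 CPM with samuraciclib, and 159, 174 and 157 CPM with DMSO. Its groups overlapped, and its 95% intervals against DMSO, −0.04 to 0.16 for YKL-5-124 and −0.08 to 0.13 for samuraciclib, limit any difference to 0.16 in size.

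No member was called higher against DMSO. Those higher by adjusted p alone with YKL-5-124 were MRPS31 (0.40 ± 0.0781), MRPL32 (0.37 ± 0.0599), MRPL55 (0.24 ± 0.0877), MRPL36 (0.20 ± 0.0745) and MRPL57. With samuraciclib they were MRPL38 (0.48 ± 0.158), MRPL32 (0.29 ± 0.0602), MRPS36 (0.24 ± 0.0874) and MRPS31 (0.23 ± 0.079). Named pseudogenes of MRPS31 carried counts equal to 6.24% of its own. MRPL38, close to the fold threshold, measured 5.72, 4.58 and 5.4 CPM with YKL-5-124, 5.52, 5.74 and 6.22 CPM with samuraciclib, and 5.27, 3.99 and 3.43 CPM with DMSO. The samuraciclib libraries were all above those of DMSO, at an edgeR adjusted p of 0.0187, but a predicted gene model covers it on its strand. MRPS36, the dehydrogenase subunit, measured 29.7, 25.8 and 28.7 CPM with YKL-5-124, 31, 25.2 and 30.4 CPM with samuraciclib, and 25, 25.7 and 22.7 CPM with DMSO. Its samuraciclib libraries overlapped those of DMSO. MRPS24 had 0.468, 1.1 and 0.73 CPM with YKL-5-124, 0.795, 0.684 and 0.874 CPM with samuraciclib, and 0.515, 0.426 and 0.339 CPM with DMSO, and its log2 fold changes of 0.90 ± 0.396 with YKL-5-124 and 0.90 ± 0.399 with samuraciclib did not pass the test (edgeR adjusted p = 0.0675 with YKL-5-124 and 0.0767 with samuraciclib).

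The remaining genes of mitochondrial gene expression were described from lists, since the MRP symbols cover only part of the machinery. Their shares called lower stand beside 9.93% of all genes with YKL-5-124 and 9.55% with samuraciclib. Those called higher stand beside 11.9% with YKL-5-124 and 8.17% with samuraciclib. Of the 5 ribosomal proteins under other symbols, PTCD3, a small subunit protein, was called lower with YKL-5-124 (−0.64 ± 0.0413) and samuraciclib (−0.65 ± 0.0414), and the list's median was −0.25 with YKL-5-124 and −0.24 with samuraciclib. Of 28 assembly factors, 0 were called higher and 2 lower with each inhibitor (7.14%, below the share of all genes, with a median of −0.18 with YKL-5-124 and −0.16 with samuraciclib). These were the 16S rRNA methyltransferase MRM1 (−1.05 ± 0.113 with YKL-5-124 and −0.85 ± 0.111 with samuraciclib) and YBEY, a counterpart of the bacterial ribonuclease (−0.64 ± 0.0992 with YKL-5-124 and −1.05 ± 0.103 with samuraciclib).

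Among 17 translation factors, 1 was called higher and 4 lower (23.5%) with YKL-5-124 (median −0.35), and 0 higher and 4 lower (23.5%) with samuraciclib (median −0.26). OXA1L, the inner membrane insertase that receives nascent chains, was lower with both, at −0.80 ± 0.0495 with YKL-5-124 and −0.81 ± 0.0496 with samuraciclib. LRPPRC, which stabilizes mitochondrial mRNAs (−0.62 ± 0.0485), the elongation factor GFM1 (−0.50 ± 0.04998) and GUF1 (−0.63 ± 0.0611) were called lower with YKL-5-124, and the release factor MTRF1L higher (0.57 ± 0.0694). The initiation factor MTIF2 (−0.62 ± 0.0609), the deformylase PDF (−0.59 ± 0.147) and MTRF1 (−0.50 ± 0.128) were called lower with samuraciclib. Of 20 genes for charging mitochondrial tRNAs, 2 (10.0%, near the share of all genes) were lower with YKL-5-124, SARS2 (−0.67 ± 0.143) and TARS2 (−0.58 ± 0.0641), and 2 with samuraciclib, TARS2 (−0.65 ± 0.0645) and QRSL1 (−0.51 ± 0.0686), with 0 higher. Of 19 genes of mitochondrial DNA transcription and RNA processing, 1 (5.26%) was lower with YKL-5-124, MTERF1 (−0.50 ± 0.0886), and 3 (15.8%) with samuraciclib, FASTKD1 (−0.61 ± 0.088), TEFM (−0.58 ± 0.109) and MTERF1 (−0.52 ± 0.089). The polymerase POLRMT (0.06 ± 0.077 with YKL-5-124 and 0.16 ± 0.0768 with samuraciclib) and its factor TFAM (−0.04 ± 0.0558 with YKL-5-124 and 0.06 ± 0.0557 with samuraciclib) were not called. These small counts moved with single libraries. Without YKL-5-124 replicate 3, 6 translation factors were lower with YKL-5-124 (9.21% of all genes), and without YKL-5-124 replicate 2, 4 assembly factors were (9.71%). Without samuraciclib replicate 2, 2 translation factors were lower with samuraciclib (9.28%). The MTERF1 call with YKL-5-124 was lost without DMSO replicate 2 or YKL-5-124 replicate 3. Of the tRNA charging genes, 1 was called with samuraciclib without DMSO replicate 1, DMSO replicate 2 or samuraciclib replicate 3. In those fits 8.68% to 8.81% of all genes were called lower with samuraciclib.

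Of 11 tested regulators of nuclear genes for mitochondria, 1 was called lower with each inhibitor (9.09%, near the share of all genes) and 0 higher. NRF1, whose core motif was searched above, measured 23.8, 22.1 and 21.4 CPM with YKL-5-124, 22.5, 21.1 and 22.5 CPM with samuraciclib, and 31.6, 35.4 and 28 CPM with DMSO. It was called lower with samuraciclib (−0.52 ± 0.0848, edgeR adjusted p = 6.87e-05) and stood just short of the fold threshold with YKL-5-124 (−0.49 ± 0.0844, edgeR adjusted p = 9.85e-05). The samuraciclib call was lost without DMSO replicate 2 (−0.43) or samuraciclib replicate 2 (−0.49). PPARGC1B, a coactivator, was called lower with YKL-5-124 (−0.66 ± 0.139) and was also lower with it than with samuraciclib (−0.71 ± 0.138). GABPA stood at −0.02 ± 0.0859 with YKL-5-124 and −0.08 ± 0.0865 with samuraciclib, YY1 at −0.21 ± 0.0524 with YKL-5-124 and −0.19 ± 0.0524 with samuraciclib, and ESRRA at 0.09 ± 0.0694 with YKL-5-124 and −0.05 ± 0.0698 with samuraciclib, none of them called. MYC stood at −0.32 ± 0.0533 with YKL-5-124 and −0.15 ± 0.0532 with samuraciclib, and PPRC1 at −0.20 ± 0.0418 with YKL-5-124 and −0.03 ± 0.0417 with samuraciclib, also not called.

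None of the mRNAs that this ribosome translates was called lower. With samuraciclib 7 of the 13 mitochondrially encoded mRNAs (53.8%) were called higher and 0 lower (median 0.52). Of all genes, 8.17% were called higher and 9.55% lower with samuraciclib. With YKL-5-124 0 of the 13 were called in either direction (median 0.20), where 11.9% of all genes were called higher and 9.93% lower. MT-CYB, of complex III, measured 1763, 1947 and 1376 CPM with YKL-5-124, 2199, 2685 and 1475 CPM with samuraciclib, and 1242, 1174 and 1662 CPM with DMSO. Its samuraciclib value was 0.64 ± 0.161 (edgeR adjusted p = 0.00333), and the count of calls rested on single libraries. Without samuraciclib replicate 2, 0 of the 13 were called, without DMSO replicate 2, 1 was, and without samuraciclib replicate 3, 13 were. Of all genes, 7.53%, 7.23% and 7.79% were called higher with samuraciclib in these fits, in the same order. Between the compounds none of the 13 was called with all libraries. Once samuraciclib replicate 3 was left out, 8 were lower with YKL-5-124 than with samuraciclib (2.38% of all genes). Of the mitochondrial ribosomal RNAs, MT-RNR1 of the small subunit was lower with YKL-5-124 than with samuraciclib (−0.59 ± 0.172, edgeR adjusted p = 0.0181), a call lost without YKL-5-124 replicate 3 or samuraciclib replicate 1.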

How the data were processed

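According to the labels and the study's methods, the authors sequenced poly(A)-selected RNA in read pairs, aligned it to GRCh38 with HISAT2 and assigned it to GENCODE genes with featureCounts 2.0.6. The deposited table holds whole-number counts per gene, not normalized or filtered. The annotation release and the strand and multi-mapping settings are not given in the sources used here. All 9 libraries were fitted together in edgeR 4.0.16 (TMM, filterByExpr, glmQLFit, glmQLFTest; 16065 genes), two-sided, with Benjamini-Hochberg adjustment over all genes. CPM uses TMM-scaled library sizes, except for the cell type markers, which use plain library totals. The SE is the log2 fold change divided by the square root of F. Totals ranged from 18096180 to 28018126. The fit was tested on simulated data.

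The members, the 9 companion lists and the tests were chosen with earlier results of these data known. Members given in every library were those called, the 3 highest and 3 lowest per length in DMSO, the MRPS18 paralogs, the stalk proteins, MRPL11, MRPL21 and MRPS36. Some called genes of the lists, plus 8 regulators whatever their values, were given by log2 fold change, with NRF1 and MT-CYB also in every library. MT-CYB values per library and MRPL27, MRPL40, MRPL49 and MRPS2 were added after their values were seen. Whether the replicates were treated separately is not stated, so p-values measure the spread between these libraries. Alternatives covered the threshold, scaling, filter, tool (DESeq2 1.42.0), libraries in the fit, depth, replicate number as a block and each library left out. R 4.3.3 and Python 3.11.15 were used.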

Additional observations from a re-analysis of the deposited data

How the results depend on the processing

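Of 27 calls of members over the 3 comparisons, 11 were made under all 20 alternatives and 0 reversed. In what follows, the share of all genes called the same way stands in parentheses. Members called lower with YKL-5-124 against DMSO numbered 12 (9.93%). They became 34 by adjusted p alone (25.2%), 6 by a test against the fold threshold (glmTreat, 4.74%) and 7 with library size alone (6.55%). With samuraciclib they numbered 14 (9.55%), against 45 by adjusted p alone (23.1%), 5 by glmTreat (3.55%) and 11 with library size alone (7.59%). With YKL-5-124 against DMSO, 0 members were called higher (11.9%), which became 5 by adjusted p alone (24.1%) and 2 with library size alone (17.4%). With samuraciclib, 0 called higher (8.17%) became 4 by adjusted p alone (21.0%). There was 1 each with counts thinned to the smallest library (7.84%), library size alone (10.1%) or a mean of at least 50 counts (7.37%). The 1 member higher with YKL-5-124 than with samuraciclib (4.46%) became 0 with DESeq2 (3.54%), RLE factors (4.30%), glmTreat (0.237%) or no filter (2.12%). The count became 2 with library size alone (6.11%) and 13 by adjusted p alone (11.8%). The 0 lower members (2.46%) became 5 by adjusted p alone (13.2%). With library size alone the member medians became −0.0045 for YKL-5-124 against DMSO, −0.21 for samuraciclib against DMSO and 0.11 for YKL-5-124 against samuraciclib. The medians of all genes moved with them, to 0.14, 0.06 and 0.08. The member median minus that of all genes was −0.15, −0.27 and 0.03, as with TMM scaling. Because scaling moves all genes almost alike, this difference could hardly change. The cause was not tested, except that dropping the fold threshold admits smaller differences.

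Leaving out 1 library at a time gave 11 to 14 members lower with YKL-5-124 and 12 to 15 with samuraciclib, 0 to 1 higher with either, and 0 to 2 higher between the inhibitors. The replicate block gave 12 lower members with YKL-5-124 (9.94%), 14 with samuraciclib (9.60%) and 1 higher between the inhibitors (4.41%). Same-numbered libraries correlated at −0.056 to 0.173 and others at −0.119 to 0.148, so a shared number alone did not set libraries apart. These are not correlations of log2 CPM itself, which stood at 0.991 to 0.993 within groups. The highest value, 0.173, was between YKL-5-124 replicate 2 and samuraciclib replicate 2. DMSO replicate 3 followed, at 0.148 with the former and 0.146 with the latter. These are the libraries left out of the counts over 6 libraries, and the replicate block does not cover likeness across numbers. Members with few counts, such as MRPS24, limit what can be detected.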

Other observations

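The members called lower with YKL-5-124 covered longer genomic spans than those not called, with a median of 33810 bases (12 members), against 9516 bases (66 members). With samuraciclib the medians were 14291 bases (14 members) and 11285 bases (64 members). Across the 78 members, Pearson's r between log2 span and log2 fold change was −0.30 with YKL-5-124 and −0.14 with samuraciclib, and across 12874 protein-coding genes it was 0.01 with YKL-5-124 and 0.12 with samuraciclib. These are correlations across genes of the same libraries, which are not independent replicates.

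In 19 members a protein-coding gene starts head to head within 1000 bases. MRPL27 stood at −0.47 with YKL-5-124 and −0.49 with samuraciclib, and its neighbour EME1, a subunit of a DNA structure-specific endonuclease, was called lower with both (−0.66 ± 0.106 with YKL-5-124 and −0.86 ± 0.108 with samuraciclib). MRPS34 stood at −0.35 with YKL-5-124 while its neighbour EME2 was called higher (0.53 ± 0.0804), and the EME2 value with samuraciclib was 0.12 ± 0.0819. MRPS18C stood at 0.02 with YKL-5-124 and its neighbour HELQ, a DNA helicase, was called higher (0.53 ± 0.129). These pairs were chosen after their values were seen.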
